A study of Mus musculus with 12 samples.

Results

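The MHC class II genes examined here were 7 genes of the class II antigen presentation pathway: H2-Aa, H2-Ab1, H2-Eb1, H2-DMa, H2-DMb1, Cd74 and Ciita. They were chosen by name, as the non-control probes of the array whose gene name is one of these 7. All 7 were present, on 8 probes out of 55675 analysed, and all 7 passed the filter on dim probes. Aortic RNA of 12 male C57BL/6J mice aged 11 to 14 weeks, 3 in each of 4 groups, was hybridised mouse by mouse to 1-colour arrays. DMSO mice received the vehicle, and rapamycin mice received 2 mg/kg/day of the mTOR inhibitor rapamycin. BA+DMSO mice received the dissection challenge, beta-aminopropionitrile (BAPN, 150 mg/kg/day, an inhibitor of collagen crosslinking) and angiotensin II (AngII, 1 µg/kg/min), with the vehicle. BA+rapamycin mice received the same challenge with rapamycin. All aortas were taken at day 3, and no group carried an engineered allele. The titles of the DMSO arrays call that group Pre, whereas the treatment label is DMSO.

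MHC class II molecules are pairs of an alpha and a beta chain that display peptides from endocytosed proteins to CD4+ T cells. Dendritic cells, B cells and macrophages carry them constitutively or after activation, and interferon gamma induces them in other cells, vascular cells included. The chains assemble on the invariant chain (Cd74), the H2-DM heterodimer exchanges the remnant of that chain for antigenic peptide, and the transactivator Ciita switches the genes on together. Ciita does not bind DNA itself but is recruited to an X box and a Y box in the class II promoters, bound by RFX, CREB and NF-Y.

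The X and Y boxes are shown first because they are the sequence that class II genes have in common. The RefSeq promoter table (GRCm38.p6, 250 bases before to 50 bases after each start) held 4 of the 7 members, H2-Aa, H2-Eb1, H2-DMa and H2-DMb1. After reading these promoters, 2 motifs were searched on both strands: CNNGNAAC, an X-type run, and TGATTGG, a Y-type run. Below, each stretch runs 5′ to 3′ on the strand of its gene with 20 bases on either side, and capitals mark the X-type and then the Y-type run. H2-Aa lies at chr17:34287847-34287927 on the minus strand, H2-Eb1 at chr17:34305753-34305832 on the plus strand and H2-DMb1 at chr17:34153074-34153154 on the plus strand. H2-Ob, a class II gene whose probes did not pass the filter, is set beside them and lies at chr17:34238795-34238872 on the plus strand.
H2-Aa: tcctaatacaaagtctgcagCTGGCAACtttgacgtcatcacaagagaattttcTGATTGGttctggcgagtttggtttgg
H2-Eb1: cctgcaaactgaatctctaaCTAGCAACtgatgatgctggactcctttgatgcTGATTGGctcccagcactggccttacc
H2-DMb1: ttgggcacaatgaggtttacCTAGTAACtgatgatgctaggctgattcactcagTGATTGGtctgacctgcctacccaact
H2-Ob: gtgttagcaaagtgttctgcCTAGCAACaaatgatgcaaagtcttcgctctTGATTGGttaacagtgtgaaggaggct

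The distance between the runs was 26 bases in H2-Aa, 25 in H2-Eb1, 26 in H2-DMb1 and 23 in H2-Ob. The X-type run began 84 bases before the start site in H2-Aa, 94 in H2-Eb1 and 97 in H2-DMb1. Singly the runs were common: of 32851 promoters of 300 bases, 39.1% held the X-type run and 7.82% the Y-type run. An X-type run followed by a Y-type run after 10 to 40 bases was found in 80 promoters (0.244%). Neither of the 2 promoters listed for H2-DMa held that pair in this window. The matches describe letters in the promoters and no binding was measured.

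Values are given on the log2 scale as the processed signal minus the 75th percentile of its array, so that 0 is the level of the probe at that percentile. A gene was represented by its probe with the highest mean, and levels of different probes cannot be set against each other. Differences were tested with limma over 27801 probes, and a probe was called at a Benjamini-Hochberg adjusted p under 0.05. The 75th percentile of the signal itself was 247 to 314 on DMSO arrays and 287 to 376 on rapamycin arrays, against 85.4 to 282 on BA+DMSO arrays and 81 to 121 on BA+rapamycin arrays, so that the challenged arrays were mostly dimmer. Over the 12 arrays, the values of the members correlated with minus the log2 of that percentile at r = 0.35 (H2-DMa) to 0.68 (Cd74), inside the lower and upper quartiles of -0.75 and 0.64 over all probes tested except for Cd74 and H2-DMb1. Its part in the results was not tested. The DMSO arrays and rapamycin replicate 1 were on slide 1 and the other 8 arrays on slide 2. Challenge and slide therefore change together between DMSO and BA+DMSO, and a slide effect can be estimated only from the rapamycin arrays. In whole tissue, more cells of a type and more RNA per cell cannot be told apart.

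The probes that stood for the genes lay, on mm9, at chr17:34421285-34421344 (H2-Aa), chr17:34406296-34406355 (H2-Ab1), chr17:34453075-34453134 (H2-Eb1), chr17:34297109-34297168 (H2-DMb1) and chr16:10526568-10526627 (Ciita). The H2-DMa probe of 60 bases spanned 564 bases at chr17:34274300-34274863, and that of Cd74 lay on chromosome 18. Exon positions on mm9 were not used here. The probes of 6 genes were well above background on all 12 arrays, and that of Ciita on 11.

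In vehicle-treated aorta 6 of the 7 class II genes were called 2.2- to 3.2-fold higher with challenge than without it, a comparison in which challenge and slide go together. With slide as a fixed block 0 were called, while the differences of the 6 genes were 1.26 to 1.71 there against 1.14 to 1.69 without the block. Ciita was not called in either fit. This count stood against a background of 20.5% of all probes called in this comparison, 9.65% as higher, and the median difference of the members was 1.51 against -0.04 over all probes tested. In none of these 6 genes did the BA+DMSO and DMSO groups overlap, against 14.4% of all probes without overlap in that direction. The 6 genes correlated with each other at r = 0.72 to 0.99 over the 12 arrays, so they are not 6 independent results.

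H2-Aa encodes the alpha chain of the I-A molecule. Its values were 0.07, -0.51 and -1.01 in DMSO replicates 1 to 3, 0.43, 0.43 and 0.82 with rapamycin, 2.02, 0.57 and 0.78 in BA+DMSO, and 0.98, 0.59 and 1.07 in BA+rapamycin. Every array outside the DMSO group lay above every DMSO array, and BA+DMSO replicate 1 lay far above its group. The challenge difference was 1.60 ± 0.37 (SE, limma adjusted p = 0.0143), a 3.04-fold change.

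H2-Ab1 encodes the I-A beta chain. Its values were 3.15, 3.09 and 2.74 with DMSO, 3.97, 4.02 and 3.71 with rapamycin, 5.27, 4.28 and 4.28 in BA+DMSO, and 4.70, 3.98 and 4.86 in BA+rapamycin. The DMSO arrays were the lowest, the rapamycin arrays overlapped the BA+rapamycin arrays, and the challenged groups overlapped each other. The challenge difference was 1.61 ± 0.30 (SE, limma adjusted p = 0.00508). A second probe, which overlaps the first on the genome and is no independent measurement, gave 1.68 ± 0.30 (SE, limma adjusted p = 0.00424).

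H2-Eb1, the beta chain of I-E, followed H2-Ab1 across the arrays (r = 0.99, n = 12 arrays). It measured 3.48, 3.39 and 2.83 with DMSO, 4.15, 4.25 and 4.02 with rapamycin, 5.52, 4.27 and 4.43 in BA+DMSO, and 4.86, 4.19 and 4.92 in BA+rapamycin. Its challenge difference was 1.51 ± 0.33 (SE, limma adjusted p = 0.0108). The I-E alpha chain is not made in C57BL/6 mice, and the probe of H2-Ea was not well above background on any array.

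Cd74 is the invariant chain, which guides new class II molecules to the endosome. It measured 2.55, 2.40 and 2.25 with DMSO, 3.42, 3.58 and 3.10 with rapamycin, 4.23, 4.03 and 3.30 in BA+DMSO, and 4.15, 3.57 and 4.25 in BA+rapamycin. The challenge difference was 1.45 ± 0.27 (SE, limma adjusted p = 0.00476), and BA+DMSO replicate 3 lay within the range of the rapamycin arrays.

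H2-DMa and H2-DMb1 encode the chains of the peptide exchange factor H2-DM. H2-DMa measured -1.44, -2.46 and -2.39 with DMSO, -1.72, -1.58 and -1.01 with rapamycin, 0.33, -1.43 and -0.13 in BA+DMSO, and -0.53, -1.05 and -0.54 in BA+rapamycin. It had the widest spread of the 6 genes in BA+DMSO (SD 0.916, n = 3), and the gap between the BA+DMSO and DMSO groups was 0.01. Its challenge difference was 1.69 ± 0.43 (SE, limma adjusted p = 0.0203), and it lost the call without DMSO replicate 2, DMSO replicate 3 or BA+DMSO replicate 1 (limma adjusted p = 0.0883, 0.0712 and 0.0791). H2-Aa lost its call without DMSO replicate 2 or replicate 3 (limma adjusted p = 0.0563 and 0.0574).

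H2-DMb1 measured 1.77, 1.66 and 1.41 with DMSO and 1.64, 1.55 and 1.47 with rapamycin, which overlapped. Under challenge it measured 2.99, 2.52 and 2.74 in BA+DMSO and 2.72, 2.30 and 2.67 in BA+rapamycin, all above every unchallenged array. The challenge difference was 1.14 ± 0.19 (SE, limma adjusted p = 0.00258).

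**Figure D1:**
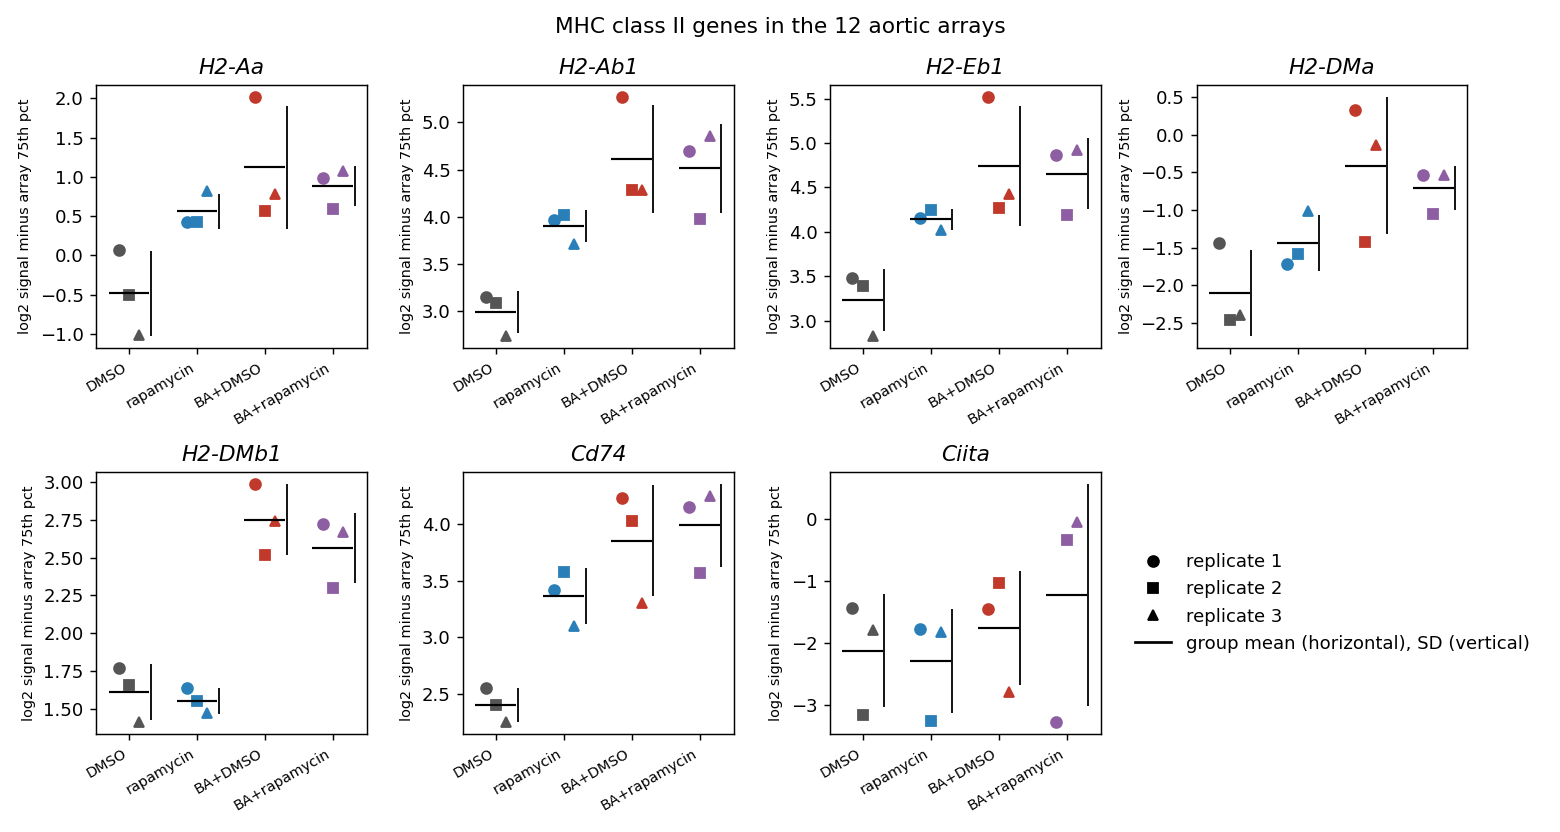
Log2 signal minus the 75th percentile of the array for each class II gene in the 12 arrays, by group. Symbols mark replicates, horizontal lines the group means and vertical lines the SD (n = 3). In H2-Aa, H2-Ab1, H2-Eb1 and Cd74 the rapamycin arrays lie above the DMSO arrays, whereas in H2-DMb1 they overlap them and both challenged groups lie above both unchallenged groups. The vertical scales differ between panels.

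These calls did not hold under every model. With slide as a fixed block, the 6 genes kept differences of 1.26 to 1.71 but none was called (limma adjusted p = 0.244 to 0.597), and calls over all probes went from 5697 to 15. With array weights, none of the 6 was called either (limma adjusted p = 0.266 to 0.533, differences 1.06 to 1.65).

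Rapamycin under challenge was compared within slide 2. It changed none of the 7 genes by this test (0 called against 0.281% of all probes, and 0 at an unadjusted p under 0.05 against 20.1%). The share over all probes rested on 1 array, since without BA+DMSO replicate 2 the calls rose from 78 to 11092 probes, and without BA+DMSO replicate 1 to 224, with 0 members called in either case. The differences between BA+rapamycin and BA+DMSO ran from -0.29 (H2-DMa) to 0.54 (Ciita), and the groups overlapped for all 7. For Cd74 the difference was 0.14, with a 95% confidence interval of -0.45 to 0.73, and for H2-DMb1 it was -0.19, with an interval of -0.60 to 0.22. For H2-Ab1 the interval was -0.76 to 0.57. A doubling or halving of H2-DMb1, H2-Ab1, H2-Eb1 (-0.81 to 0.64) and Cd74, a difference of 1 on this scale, lay outside the intervals, whereas for H2-Aa (-1.06 to 0.58), H2-DMa (-1.24 to 0.65) and Ciita (-1.29 to 2.36) it did not. Without BA+DMSO replicate 1, the highest array in 6 of the 7 genes within its group, the differences of H2-Aa, H2-Ab1 and H2-Eb1 were 0.21, 0.23 and 0.31. BA+DMSO replicate 1 and BA+rapamycin replicate 1, 1 array against 1, carry the same date in their titles, and between them the 6 genes other than Ciita differed by -1.04 (H2-Aa) to -0.09 (Cd74) and Ciita by -1.83, all lower in the rapamycin mouse.

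Rapamycin alone was compared with DMSO in unchallenged aorta. None of the 7 genes was called (0.0036% of all probes, 1 probe, was called in either direction). The antigen-presenting chains and the invariant chain nevertheless measured higher in all 3 rapamycin mice than in all 3 DMSO mice. That held for 4 of the 7 genes, against 10.8% of all probes, and the same 4 had an unadjusted p under 0.05, against 2.41% of all probes in that direction. These 4 genes correlated with each other at r = 0.85 to 0.99 over the 12 arrays, so they are not 4 independent results. The difference was 1.04 ± 0.37 for H2-Aa (SE, limma adjusted p = 1), 0.91 ± 0.30 for H2-Ab1 (SE, limma adjusted p = 0.932), 0.91 ± 0.33 for H2-Eb1 (SE, limma adjusted p = 1) and 0.97 ± 0.27 for Cd74 (SE, limma adjusted p = 0.704). These are differences of 1.88- to 2.06-fold.

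H2-DMa differed by 0.66 ± 0.43 (SE, limma adjusted p = 1) with a 95% confidence interval of -0.29 to 1.60, which includes the values of the 4 genes above, and its groups overlapped. H2-DMb1 differed by -0.05 ± 0.19 (SE, limma adjusted p = 1) with a 95% confidence interval of -0.46 to 0.35. The intervals of H2-DMb1 and Cd74 (0.38 to 1.56) did not overlap. The difference between these genes in their response was not tested.

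The values within a slide and within a title date are subsets of the same arrays, so the absence of overlap in these 4 genes carries over to them and is no further evidence. On slide 1, rapamycin replicate 1, a single array, exceeded the mean of the 3 DMSO arrays by 0.91 in H2-Aa, 0.97 in H2-Ab1, 0.92 in H2-Eb1 and 1.02 in Cd74, and by 0.37, with overlap, in H2-DMa. At the title date shared by unchallenged groups, the 2 rapamycin arrays exceeded the 2 DMSO arrays by 1.39, 0.95, 1.03 and 1.02. Those 2 rapamycin arrays were on slide 2 and the 2 DMSO arrays on slide 1. Rapamycin and slide therefore go together at that date. Within that date H2-DMa was 1.13 higher without overlap, and H2-DMb1 differed by -0.02. With array weights the 4 genes were called (limma adjusted p = 0.00453 to 0.0215), together with 1512 probes in all.

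Challenge under rapamycin, BA+rapamycin against rapamycin, called 1 of the 7 genes, H2-DMb1, as higher. That share is near the background, since 41.7% of all probes were called and 18.9% as higher. H2-DMb1 was 1.01 ± 0.19 higher (SE, limma adjusted p = 0.00282), a 2.01-fold change, and 1.05 higher within slide 2. Cd74 was 0.62 ± 0.27 higher (SE, limma adjusted p = 0.0818), and was called without BA+rapamycin replicate 2 or BA+DMSO replicate 3 (limma adjusted p = 0.0481 and 0.0304). H2-Ab1 was 0.61 higher, H2-Eb1 0.52, H2-DMa 0.74, H2-Aa 0.32 and Ciita 1.06, none of them called. This comparison shares its rapamycin arrays with the comparison before, and those arrays were the ones that measured high in the 4 genes.

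Whether the rapamycin difference changed with challenge was tested as an interaction. It was called for 0 of the 27801 probes, 0% of them, by limma, and 2 of the 7 members had an unadjusted p under 0.05 against 6.12% of all probes. Without BA+DMSO replicate 2 it was called for 3058 probes, and still for 0 members. H2-Aa had an interaction of -1.28 (95% confidence interval -2.45 to -0.12) and H2-Ab1 of -1.0 (-1.94 to -0.06), both with a limma adjusted p of 0.737. H2-DMb1 had an interaction of -0.13 (-0.71 to 0.45). A differing response to rapamycin with and without challenge was therefore not shown for any member.

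**Figure D2:**
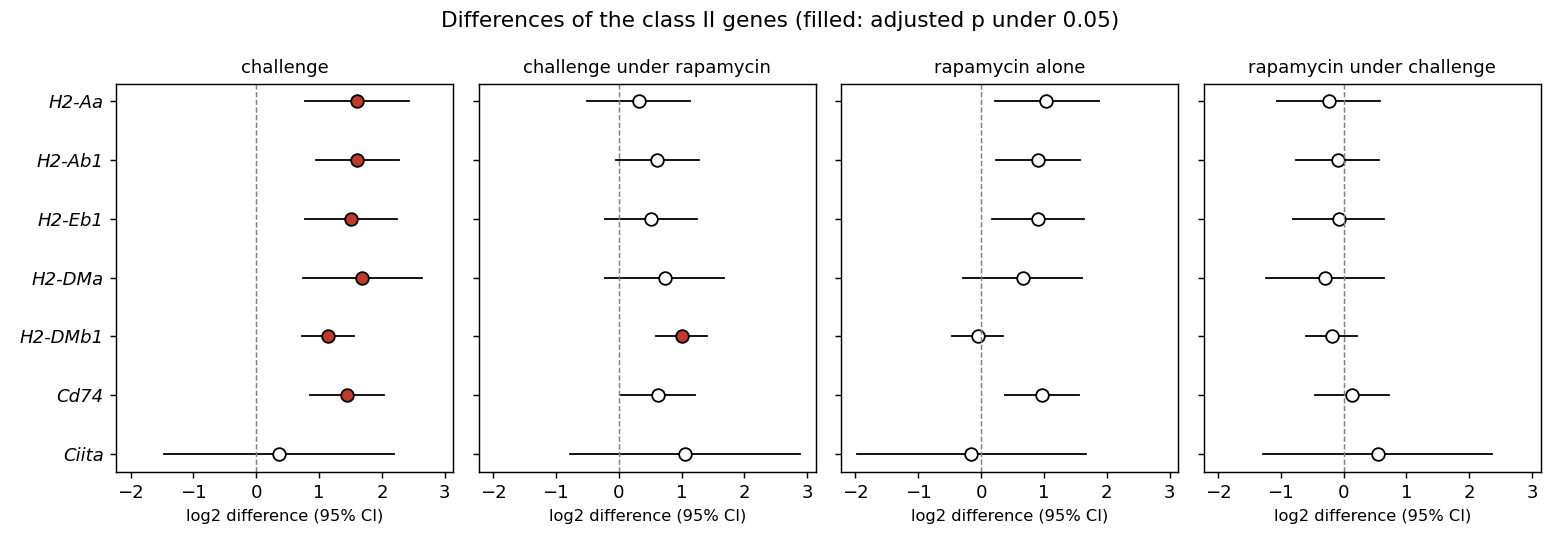
Log2 difference with its 95% confidence interval for each class II gene in the 4 comparisons, with filled points for an adjusted p under 0.05. Challenge has 6 filled points, challenge under rapamycin has 1 (H2-DMb1), and the comparisons of rapamycin have none, although the intervals of H2-Aa, H2-Ab1, H2-Eb1 and Cd74 lie above 0 for rapamycin alone.

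Ciita, the transactivator, was not called in any comparison. It measured -1.44, -3.16 and -1.79 with DMSO, -1.78, -3.25 and -1.83 with rapamycin, -1.45, -1.04 and -2.79 in BA+DMSO, and -3.28, -0.34 and -0.05 in BA+rapamycin. The groups overlapped throughout and the spread within BA+rapamycin (SD 1.79, n = 3) exceeded every difference between group means. The challenge difference was 0.37, with a 95% confidence interval of -1.46 to 2.19, so the 2.2- to 3.2-fold range of the other members was not excluded. Its values correlated with those of the other 6 genes at r = 0.15 to 0.27 over the 12 arrays, while those 6 correlated with each other at 0.72 to 0.99.

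The only probe of Ciita holds AAAAC 8 times in its 60 bases, and 6 other probes of the array share a run of 18 bases with it, whereas the other 7 class II probes share such a run with at most 1. Of 11 other probes that hold AAAAC 3 times in a row, the 3 with 5 copies followed the Ciita values most closely: Cbln2 at r = 0.90, Prg4 at 0.83 and Odz1 at 0.78. Cbln2 encodes a secreted synaptic protein. These probes were looked up after the values of Ciita had been seen. How far the signal of the Ciita probe comes from Ciita transcripts was not tested.

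**Figure D3:**
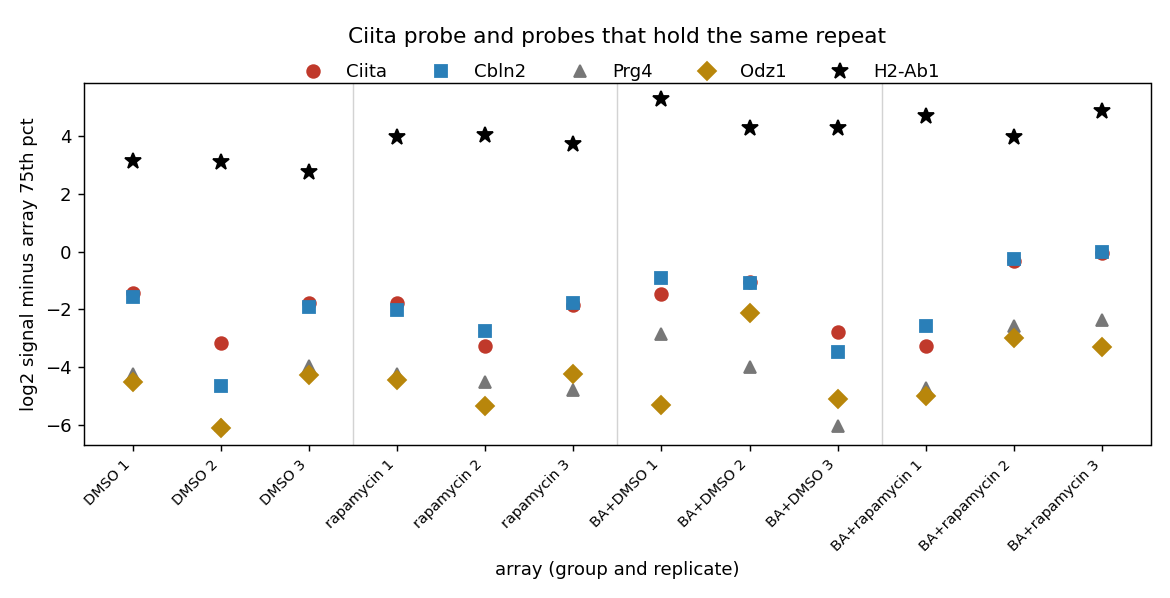
Log2 signal minus the 75th percentile in the 12 arrays for the Ciita probe, for the Cbln2, Prg4 and Odz1 probes that hold 5 copies of the same repeat unit, and for H2-Ab1. The Ciita and Cbln2 points correlate over the 12 arrays (r = 0.90), whereas the H2-Ab1 points separate the DMSO arrays from the others. The Prg4 probe was well above background on only 2 of the 12 arrays and the Odz1 probe on 1.

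Of H2-Ea, H2-Eb2, H2-DMb2, H2-Oa and H2-Ob, only H2-Eb2 passed the filter, well above background on all 12 arrays, with differences of 0.35 for challenge and 0.70 for rapamycin alone, neither called. H2-Oa and H2-Ob, the chains of the H2-DM inhibitor of B cells, and H2-DMb2 did not pass. H2-Eb2, H2-Oa and H2-Ob hold the same pair of promoter runs as H2-Aa, H2-Eb1 and H2-DMb1. The promoter of H2-DMb2 holds each run but not that pair on the strand of the gene. The other strand of that promoter was not searched for the pair.

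No tested factor of the class II promoter or of the interferon gamma pathway was called higher with challenge. Of 7 promoter factors, 6 were tested, and challenge called 0 higher and 2 lower, where 10.8% of all probes were called lower. These were Rfxank, an RFX subunit (-0.86 ± 0.22 SE, limma adjusted p = 0.021), and Creb1 (-1.46 ± 0.24 SE, limma adjusted p = 0.00285), for which a second probe measured -0.26 (limma adjusted p = 0.415). The DNA-binding subunit Rfx5 was not well above background on any array. Of 13 genes of the interferon gamma arm, 9 were tested, 0 were called higher and 1 lower, shares near those of all probes, the receptor kinase Jak2 (-0.79 ± 0.16 SE, limma adjusted p = 0.00794). The probe of Ifng was not well above background on any array, and Irf1, a target of the pathway, differed by 0.17 (limma adjusted p = 0.598). In challenge under rapamycin 3 promoter factors and 2 interferon arm genes were called lower and none higher, where 22.9% of all probes were called lower.

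Of 11 genes of endolysosomal processing, challenge called 2 higher, where 9.65% of all probes were called higher and a share of this size is near the background. Cathepsin S (Ctss), which cleaves the invariant chain, rose by 2.30 ± 0.50 (SE, limma adjusted p = 0.0101) and cathepsin Z (Ctsz) by 0.82 ± 0.15 (SE, limma adjusted p = 0.00474). The brightest probe of March1, a ligase that removes class II from the surface, was not called (limma adjusted p = 0.112) and followed the brightness of the arrays (r = 0.99), while another probe of it rose by 1.63 ± 0.28 (SE, limma adjusted p = 0.00333). Of 6 costimulatory genes tested, challenge called 2 higher, against 9.65% of all probes. Cd86 rose by 1.36 ± 0.27 (SE, limma adjusted p = 0.00707) and Cd40 by 1.15 ± 0.33 (SE, limma adjusted p = 0.0311). Of the 6, 4 had a positive difference, with a median of 0.30. The mean of Cd274 was -1.74 with DMSO and -2.91 in BA+DMSO, and that of Pdcd1lg2 -3.36 and -4.70. Neither was called, both are named after their values were seen, and Pdcd1lg2 was well above background on 0 BA+DMSO arrays.

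The class I pathway was set beside class II. Challenge called 3 of its 12 genes higher, against 9.65% of all probes. These were the immunoproteasome subunits Psmb8 (1.15 ± 0.25 SE, limma adjusted p = 0.0106) and Psmb9 (0.72 ± 0.20 SE, limma adjusted p = 0.0303) and the heavy chain H2-K1 (0.55 ± 0.15 SE, limma adjusted p = 0.0308). The median difference of the 12 was 0.31 against 1.51 for class II. Rapamycin under challenge called none of the 12, against 0.281% of all probes. All 12 had a negative difference and their median was -0.58, whereas the median of the class II genes was -0.09. For rapamycin alone the median of class I was 0.01 and that of class II 0.91. Whether the classes differ in these responses was not tested.

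Markers of several cell types were called higher with challenge. Of 12 macrophage markers, challenge called 10 higher against 9.65% of all probes, with a median difference of 1.96. Among them were Cd68 (2.63 ± 0.42 SE, limma adjusted p = 0.00232), Emr1, the F4/80 antigen (2.40 ± 0.35 SE, limma adjusted p = 0.00147), Aif1 (2.31 ± 0.20 SE, limma adjusted p = 0.000126) and Fcgr1 (2.23 ± 0.26 SE, limma adjusted p = 0.000591). Mertk, a receptor for the uptake of dead cells, had a difference of -0.75 (limma adjusted p = 0.0787) and is named after its values were seen. The summed level of the 12, in units of the 75th percentile, was 30 to 48.1 on DMSO arrays and 46.3 to 55.7 on rapamycin arrays, 74.1 to 167 on BA+DMSO arrays and at least 100 on every BA+rapamycin array. All 12 were well above background on some array of each group, except Cd163 in BA+rapamycin. The leukocyte antigen CD45 (Ptprc) rose by 1.79 ± 0.34 (SE, limma adjusted p = 0.00528).

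Of 8 dendritic cell markers tested out of 10, challenge called 4 higher, against 9.65% of all probes. They were Cd209a, Itgax (2.01 ± 0.30 SE, limma adjusted p = 0.00159), Batf3 (1.67 ± 0.36 SE, limma adjusted p = 0.0098) and Irf8 (1.57 ± 0.28 SE, limma adjusted p = 0.00418). Cd209a was not well above background on any DMSO array, was so on 2 of 3 BA+DMSO arrays, and was at least 5.62-fold higher in BA+DMSO (limma adjusted p = 0.00374), measured as the mean against the lowest signal above background. It was so on all 3 BA+rapamycin arrays and passed the filter through that challenged group, where it was high. Itgax, Batf3 and Irf8 were well above background on all 3 DMSO arrays. Of the 8 tested, 7 had a positive difference, with a median of 1.61. The mean of Flt3 was -2.62 with DMSO and -2.70 in BA+DMSO. That of Zbtb46 was -3 and -2.71, and a second Zbtb46 probe measured -2.91 and -3.90. Flt3 and Zbtb46 are named after their values were seen. The summed level of the dendritic markers, after leaving out probes that followed array brightness at r over 0.95, a rule set after seeing the data, was 1.40 to 1.78 on DMSO arrays and 1.78 to 2.18 on rapamycin arrays, against 2.87 to 5.97 with BA+DMSO and 4.27 to 5.72 with BA+rapamycin. Of the 10 markers, 2 to 4 in each group were well above background on no array. With the left-out probes included the sum was 136 to 161 on DMSO arrays and 123 to 152 on rapamycin arrays, against 119 to 420 with BA+DMSO, which overlapped them, and 344 to 468 with BA+rapamycin, and nearly all of it was 1 Siglech probe. Such sums are dominated by their brightest probes. Xcr1, a defining marker of cross-presenting dendritic cells, was not well above background on any array.

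Challenge called 4 of 6 monocyte markers higher, among them Chi3l3 (3.47 ± 0.54 SE, limma adjusted p = 0.00217) and Ccr2 (3.04 ± 0.62 SE, limma adjusted p = 0.00782). Both were well above background on only 1 of 3 DMSO arrays, so the size of these differences is uncertain. Chi3l3 was so on 2 of 3 rapamycin arrays and on all 3 of each challenged group, and thus passed the filter through groups where it was high. For each count in this paragraph, 9.65% of all probes were called higher and 10.8% lower. None of the 5 tested B cell markers was called, a count near the background share, and 4 of 5 had a positive difference with a median of 0.86. The summed level of the B cell markers under the same rule was 0.383 to 0.928 on DMSO arrays and 0.558 to 1.29 on rapamycin arrays, against 0.929 to 1.45 with BA+DMSO and 0.901 to 1.76 with BA+rapamycin. With those probes included it was 1.15 to 2.30 and 1.27 to 2.2, against 1.60 to 6.02 and 4.17 to 6.13. Of 6 T cell markers, Cd3e (0.92 ± 0.24 SE, limma adjusted p = 0.0235) and Cd4 (0.89 ± 0.25 SE, limma adjusted p = 0.0278) were called higher, and the Cd4 probe followed array brightness (r = 0.97). Only 3 of the 6 had a positive difference and their median was -0.13, with Cd28 at -0.72, Cd3d at -0.52 and Lck at -0.35, none of them called and named after their values were seen. Of 8 endothelial markers 3 were called higher, and of 8 smooth muscle markers 0 higher and 1 lower, Lmod1 (-1.91 ± 0.29 SE, limma adjusted p = 0.0019). Of 4 neutrophil markers tested, Ly6g was called higher (1.87 ± 0.51 SE, limma adjusted p = 0.0268), and their median was 1.69 with 4 of 4 positive. Of 6 adipocyte markers tested, the brown fat gene Ucp1 was called higher, at least 6.47-fold (limma adjusted p = 0.0143), and their median was 1.61 with 5 of 6 positive. Ucp1 was well above background on all 3 BA+DMSO arrays and on no DMSO array, so it passed the filter through the group where it was high.

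For rapamycin alone no marker of any of these lists was called. The median difference of the macrophage markers was 0.50 with 11 of 12 positive, that of the neutrophil markers 0.81 with 4 of 4 positive, that of the monocyte markers 0.43, that of the dendritic markers 0.42 and that of the endothelial markers 0.39, while that of the T cell markers was -0.78. CD45 differed by -0.03, with a 95% confidence interval of -0.77 to 0.72. Among the macrophage markers were Cd163, at 2.26 ± 0.50 (SE, limma adjusted p = 0.523), and Lyve1, at 1.16 ± 0.32 (SE, limma adjusted p = 0.688), both receptors of tissue-resident macrophages and named here after their values were seen. Cd163 was well above background on only 1 of the 3 DMSO arrays and on all 3 rapamycin arrays. It passed the filter only through the rapamycin group, where it was high, so the size of its difference is uncertain. The part of these cells in the class II values was not tested.

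**Figure D4:**
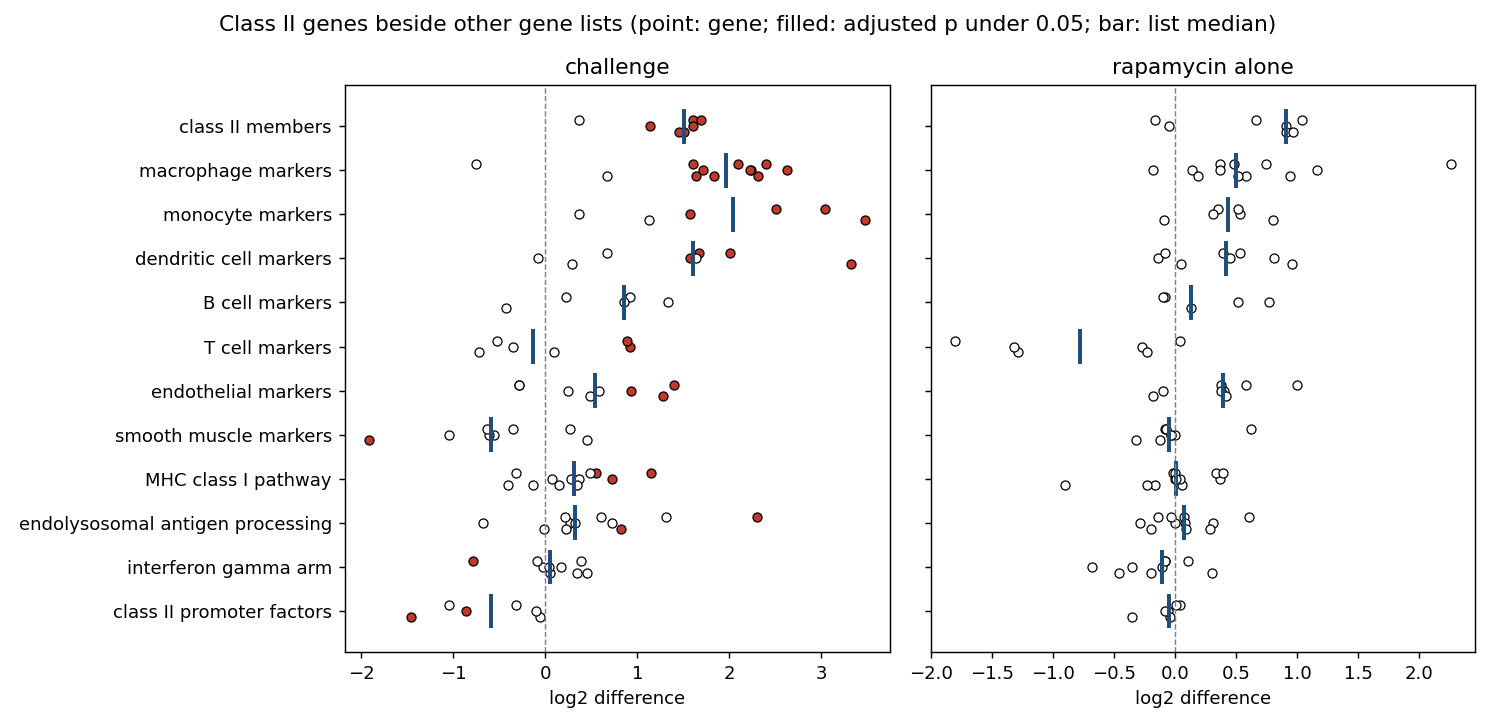
Log2 differences for challenge (left) and rapamycin alone (right), with 1 point for each gene tested, filled where the adjusted p is under 0.05, and a bar at the median of each list. For challenge the class II, macrophage, monocyte and dendritic lists have medians to the right of 0 (1.51, 1.96, 2.04 and 1.61). The B cell and endothelial medians lie there too (0.86 and 0.53). The promoter factor, smooth muscle and T cell lists have theirs to the left (-0.59, -0.58 and -0.13). The neutrophil and adipocyte lists are not plotted. For rapamycin alone no point is filled, and the class II median of 0.91 stands beside 0.50 for macrophage markers.

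Genes with the pattern most like that of class II over the 12 arrays were ranked by their correlation with the mean profile of H2-Aa, H2-Ab1, H2-Eb1 and Cd74. That profile was -0.72, -0.94 and -1.33 in DMSO, -0.04, 0.04 and -0.11 in rapamycin, 1.23, 0.25 and 0.17 in BA+DMSO, and 0.64, 0.05 and 0.75 in BA+rapamycin. The 10 highest were Il20rb (r = 0.97), Abca9, Afap1l1, Ptgir and Marcks (each 0.96), Slc43a2 (0.95), and Sorcs2, Prex1, Pla2g7 and Cebpa (each 0.94). Among 13769 probes considered, 40 (0.291%) exceeded 0.9. All 10 were called higher in challenge, by 0.76 (Ptgir, the prostacyclin receptor) to 1.88 (Cebpa, a transcription factor of myeloid cells and adipocytes). For rapamycin alone they differed by 0.37 to 1.04 and none was called. Rapamycin under challenge gave differences of -0.11 to 0.14 with none called. These values describe arrays that the ranking itself used.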

How the data were processed

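The authors hybridised Cy3-labelled aortic RNA to Agilent mouse arrays of 1 colour, spread over 2 slides. Per the file headers, Feature Extraction 10.7.1.1 read the images (the submitters' processing notes name 9.5.1.1) and probes are placed on mm9. The deposited processed signal, spot mean and local background are linear intensities that were not adjusted from array to array. Other deposited columns, used as per the file headers, are flags coded 0 or 1. The deposited matrix holds intensity that, from its values, was quantile normalized.

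Outlier-flagged spots were removed, the spots of a probe averaged on the log2 scale, and the 75th percentile of each array subtracted. Of 55681 probes, 6 without a value on some array were dropped. Tested probes had a share of 0.5 or more of spots well above background in each of the 3 arrays of some group. All 12 arrays entered 1 limma 3.58.1 model (R 4.3.3, moderated variances, no block), checked on simulated data, with Benjamini-Hochberg adjustment within each comparison. Their number limits the precision.

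Arrays were grouped by treatment label and numbered in order of deposition. A number only names an array, and deviations from group means of arrays with the same number correlated at -0.55 to 0.42. The labels give 3 mice for each group, so p-values measure the spread between mice. Members and lists were chosen with earlier results of these data known. Named were all members, up to 4 called genes of each list in a comparison, role genes (Ifng, Irf1, Rfx5, H2-Ea, Ptprc), the 10 genes most like class II, and those said in the text to be named after their values were seen. Some genes are not reported here. Chil3 and Adgre1 appear under the array's older names, Chi3l3 and Emr1. Alternatives were other normalizations, filters, blocks, weights and arrays left out. Comparisons within a slide or title date were chosen after seeing the data.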

Additional observations from a re-analysis of the deposited data

Results flagged for a closer look

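In H2-Aa all 3 rapamycin arrays lay above the DMSO mean and all 3 BA+rapamycin arrays below the BA+DMSO mean, with an interaction of -1.28 (limma adjusted p = 0.737). The same held for H2-DMa, with an interaction of -0.95 (limma adjusted p = 0.737). The rapamycin differences of these genes were thus opposite in sign with and without challenge, and the test of that difference was not passed. The sign under challenge turned in some fits. The H2-Aa difference was 0.21 without BA+DMSO replicate 1 and 0.25 with array weights, and that of H2-DMa reached 0.08 with 1 array left out. Groups of 3 arrays were not tested for single outlying arrays.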

How the results depend on the processing

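The 6 calls for challenge were also made, for the same 6 genes, with quantile normalization, the deposited matrix, normexp and either filter. The same calls were made with the 75th percentile over probes well above background on all 12 arrays. So were they with slide or title date as a random block. They fell to 0 with slide as a fixed block or array weights and to 3 (H2-Ab1, H2-DMb1 and Cd74) with only the groups of the comparison in the fit. The slide block rests on the rapamycin arrays alone, and the estimate of array weights did not fully converge; the cause of the lost calls was not tested further. With 1 array left out, 4 to 6 genes were called for challenge, 1 to 2 for challenge under rapamycin, and 0 to 0 in the other comparisons. For rapamycin alone, 4 genes were called with array weights and 0 otherwise. For challenge under rapamycin, 3 were called with normexp (H2-DMa, H2-DMb1 and Ciita), 5 with array weights and 2 with only its groups, where 17357, 18256 and 15673 of all probes were called, and leaving out BA+rapamycin replicate 1 called Ciita besides H2-DMb1.

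With the replicate block the counts were 6 for challenge, 1 for challenge under rapamycin and 0 elsewhere, so the replicate block changed no count. The numbers only name arrays and do not pair them.

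Reversed signs concerned differences that were not called on either side. For rapamycin under challenge, H2-Eb1 went to 0.02 with quantile normalization and with the deposited matrix, and to 0.06 with the percentile over detected probes, where H2-Ab1 went to 0.05. With array weights H2-Aa went to 0.25, H2-Ab1 to 0.39 and H2-Eb1 to 0.40. For rapamycin alone, H2-DMb1 went to 0.03 with the slide as a fixed block. There Ciita went to 0.35 with the slide block, to 0.01 with the title date block and 0.10 with array weights. With the title date block, Ciita went to -0.06 for rapamycin under challenge and -0.08 for the interaction, and H2-Aa to -0.04 for challenge under rapamycin.

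With single arrays left out, the ranges of the differences that changed sign were, for rapamycin under challenge, -0.52 to 0.21 for H2-Aa, -0.27 to 0.23 for H2-Ab1, -0.32 to 0.31 for H2-Eb1, -0.81 to 0.08 for H2-DMa, -0.14 to 0.35 for Cd74 and -0.05 to 1.56 for Ciita. For rapamycin alone they were -0.16 to 0.03 for H2-DMb1 and -0.67 to 0.32 for Ciita, and for challenge -0.15 to 0.88 for Ciita.

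Signal over background limits Ciita most, which was well above background on 11 of 12 arrays, while the other 6 genes were so on all 12.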
